A study of Mus musculus with 16 samples.

Results

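Mir99a, Mir125a, Mir125b-1 and Mir126a are 4 mouse microRNA (miRNA) genes known from blood stem and progenitor cells. They were taken as the counted intervals whose chromosome, start and end equal those of the genes in GENCODE release M21 on GRCm38, which gave 4 of 1885 intervals. The study sequenced small non-coding RNA of 8 cell types that were sorted by flow cytometry out of wild-type mouse bone marrow, as 16 libraries or 2 for each type. Per its design text it examined snoRNAs in such cells, and the labels give no mutation and no treatment in any group. The progenitors were CLP, CMP, GMP and MEP, the usual names for the common lymphoid, the common myeloid, the granulocyte and monocyte, and the megakaryocyte and erythroid progenitor. B, T, Myeloid (spelled Myloid in the labels) and Erythroid cells made up the mature side. Strain, age, sex and the gate of each population are not given in the sources used here, and no label says that the 2 libraries of a type are from different mice. The p-values therefore rest on a spread that may be technical.

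A miRNA is cut from a hairpin precursor, and its mature strand guides Argonaute to messenger RNAs through the seed, bases 2 to 8 from its 5′ end. The miR-99, let-7 and miR-125 families lie together in several related clusters, and miR-125 is known to expand stem and progenitor cells and to drive leukaemia when it is raised in mice. miR-99 and miR-126 are known to restrain the cycling of stem cells, and miR-126 is also abundant in the lining cells of blood vessels. The libraries were size-selected on a gel at 170 to 370 base pairs with adaptors, the length of snoRNAs. The counts are given per hairpin interval, without read lengths, so reads of precursor hairpins and of mature strands cannot be told apart in them. How many mature strands passed that selection was not tested.

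The mature strands of the members and their relatives are given because they show which of them share a seed, in capitals (RefSeq, GRCm38.p6). Whether intervals could share reads depends on the whole strand, not on the seed alone.
miR-99a-5p: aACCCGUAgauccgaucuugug
miR-99b-5p: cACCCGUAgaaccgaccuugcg
miR-100-5p: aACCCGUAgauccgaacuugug
miR-125a-5p: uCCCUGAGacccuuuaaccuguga
miR-125b-5p: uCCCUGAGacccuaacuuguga
miR-126a-3p: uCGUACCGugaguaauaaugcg
let-7c-5p: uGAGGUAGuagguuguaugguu

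The strands of Mir99a, Mir99b and Mir100 had the seed ACCCGUA. Mir99a and Mir100 were identical at 21 of 22 bases, and Mir99a and Mir99b at 18 of 22. Mir125a and Mir125b-1 shared the seed CCCUGAG, with 21 identical bases over an alignment of 24. The mature 5p strand of Mir125b-1 is the same as that of Mir125b-2 on chromosome 16, so reads of that strand cannot be assigned to 1 gene by sequence. Mir126a shared its seed with no relative listed here.

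The intervals counted were the hairpins, in which capitals mark the mature strands that RefSeq lists. They are shown because a read of any of their bases could enter the counts.
Mir99a: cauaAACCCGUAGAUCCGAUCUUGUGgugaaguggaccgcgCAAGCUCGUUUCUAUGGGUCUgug
Mir125a: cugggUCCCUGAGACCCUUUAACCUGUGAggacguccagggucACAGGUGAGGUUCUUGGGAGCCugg
Mir125b-1: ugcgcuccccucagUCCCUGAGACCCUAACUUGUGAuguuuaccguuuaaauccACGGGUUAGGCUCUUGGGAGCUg
Mir126a: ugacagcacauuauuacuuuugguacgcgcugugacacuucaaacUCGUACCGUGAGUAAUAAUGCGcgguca

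All 4 members lie on the plus strand. Mir99a (ENSMUSG00000065530, chr16:77598936-77599000) is in an intron of the non-coding gene Mir99ahg, 656 bases from Mirlet7c-1, and also within Gm11146 on the other strand. Mir125a (ENSMUSG00000065479, chr17:17830812-17830879) lies within Spaca6, partly over exon 1 of a processed transcript of it, 554 bases from Mir99b and 367 from Mirlet7e. Mir125b-1 (ENSMUSG00000093354, chr9:41581926-41582002) is in an intron of the non-coding gene 3110039I08Rik and in exon 1 of the transcript Gm28119 there, 45114 bases from Mirlet7a-2. Mir126a (ENSMUSG00000065540, chr2:26591357-26591429) is in an intron of Egfl7, a gene of blood vessel cells, and in exon 4 of a transcript of Egfl7 that keeps that intron. Mir126b lies inside it on the opposite strand. Strand use in the counting is not given in the sources used here, so reads of Mir126a and Mir126b, and of the host transcripts, cannot be told apart. Mir126b itself held 14 counts over the 16 libraries, against 3120 for Mir126a.

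Library totals ran from 8197458 to 41799906 counts. The 543 intervals with a miRNA gene name held 0.535% to 3.18% of them. That share differed between the libraries of 1 population by 2.33 times in GMP, 2.61 times in MEP and 2.60 times in Erythroid, and by at most 1.10 times in the other populations. The members are therefore given on 2 scales, as TMM-scaled CPM, which are counts set to a common library total over all intervals, and as miRNA CPM, for which the miRNA counts of the library are the total. The miRNA counts of the CMP libraries differed by less than counting noise (chi-square over its degrees of freedom 0.559), but their counts over all intervals differed by more than it (3.45). They were kept as 2 libraries. The tests scaled over all intervals were repeated with the pair summed as 1, but those on miRNA counts alone were not. Lymphocyte markers (Mir150 and Mir342) summed to 324 and 348 TMM-scaled CPM in T cells and 87.9 and 108 in B cells, and to at most 60.1 elsewhere. Mir223 was highest in Myeloid cells on that scale, at 895 and 946. In miRNA CPM its mean was 33487 in Myeloid cells, 34520 in GMP and 34393 in Erythroid cells, so there it did not set Myeloid cells apart. In TMM-scaled CPM, the red cell markers were as follows. The red cell markers Mir144 and Mir451a summed to 114 and 184 in Erythroid cells, but to 124 and 134 in CLP, so they did not set Erythroid cells apart.

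**Figure D1:**
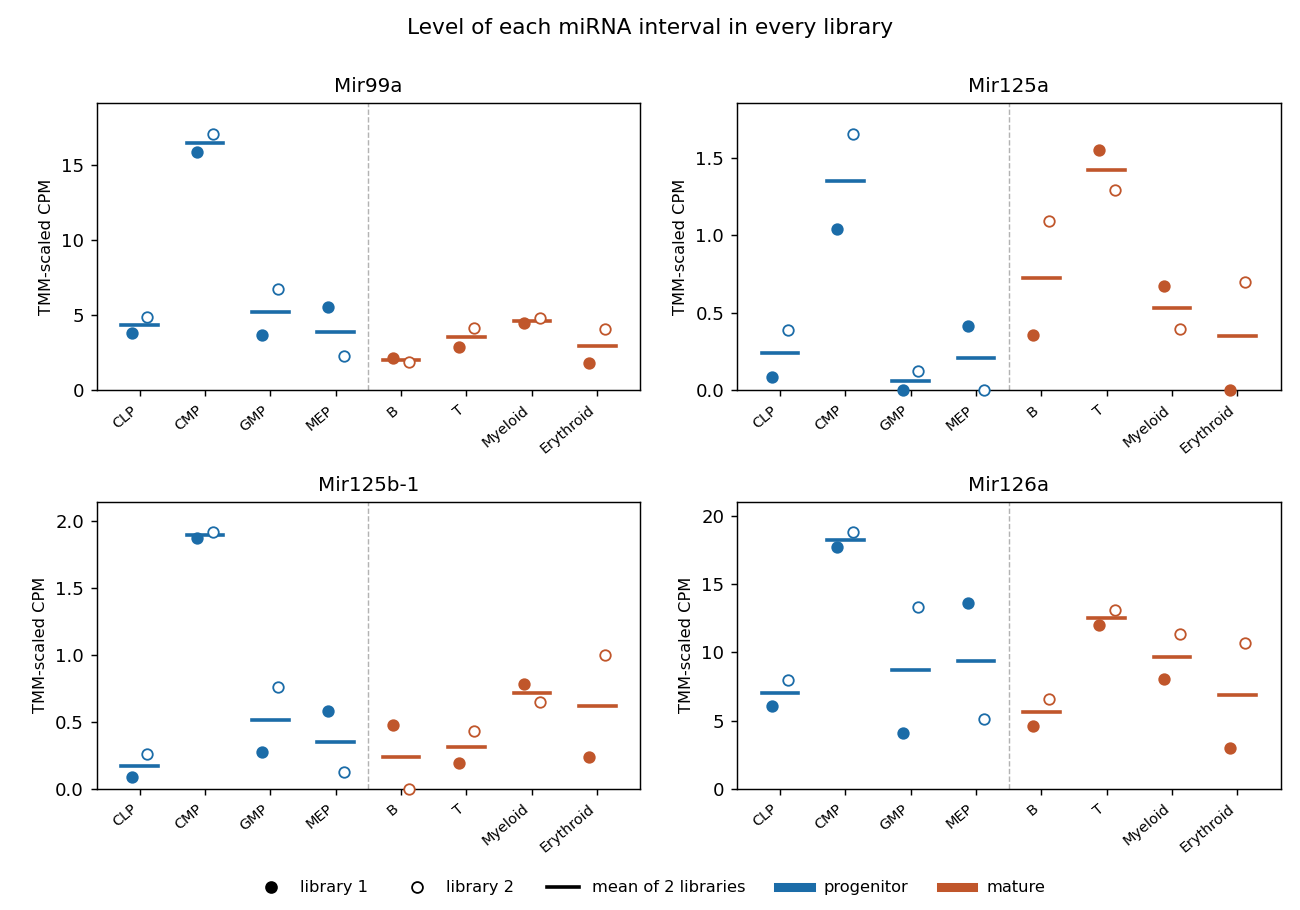
TMM-scaled CPM of each member in every library, with progenitors in blue and mature populations in orange, library 1 filled, library 2 open and the mean of the 2 as a bar. Mir99a, Mir125b-1 and Mir126a stood highest in both CMP libraries, and Mir125a in CMP and T cells.

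The members fell into an abundant and a scarce pair. Per kilobase of interval, Mir126a averaged 134 TMM-scaled CPM and Mir99a 82.7 over the 16 libraries, against 8.98 for Mir125a and 7.83 for Mir125b-1. Mir126a had 50 to 456 counts in a library and Mir99a 24 to 392. Mir125a had at most 38 counts and was not listed in 3 libraries, and Mir125b-1 had at most 44 and was not listed in 1. Both scarce members reached the low-count limit in 7 libraries, which include both CMP libraries. Counts of the 2 mates of a read pair appear to enter separately, since 89.0% to 93.2% of the values in a library were even. A 0 then allows up to 3 read pairs, or 6 counts.

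Mir99a, which marks stem and progenitor cells, stood apart in CMP. The CMP libraries had 15.8 and 17.0 TMM-scaled CPM of it, those of CLP 3.80 and 4.86, those of GMP 3.68 and 6.72 and those of MEP 5.55 and 2.26. In mature cells it was 2.13 and 1.88 in B, 2.91 and 4.17 in T, 4.47 and 4.82 in Myeloid and 1.81 and 4.11 in Erythroid. Both CMP libraries thus lay far above the other 14, while the ranges of the other progenitors and of the mature populations overlapped. The 95% counting intervals, taken on read pairs, were 12.5 to 19.8 and 14.7 to 19.6 in the CMP libraries. Such intervals, like the limits for a 0, cover counting error only.

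Mir99a was higher in CMP than in each of the 7 other populations in edgeR's quasi-likelihood test, adjusted by Benjamini-Hochberg over all 749 intervals tested and all 28 pairs of populations. The log2 difference was smallest against GMP, 1.66 (SE 0.45, 3.16-fold, adjusted p = 0.0173), and largest against B cells, 3.03 (SE 0.49, 8.16-fold, adjusted p = 0.000742). Against CLP it was 1.92 (3.78-fold), against MEP 2.05, against T 2.21, against Myeloid 1.82 and against Erythroid 2.46. Of all tests of CMP against another population, 13.9% were called higher in CMP. Among the intervals tested 3.07% were above all 7, and among the 201 miRNAs 1.49%, which are Mir99a, Mir99b and Mir222. The other 21 of 28 pairs of populations did not differ in Mir99a past the threshold, where 27.5% of all such tests were called, so the order GMP, Myeloid, CLP, MEP, T, Erythroid and B below CMP has no step beyond the spread between libraries. Leaving out 1 library at a time left 6 or 7 populations that CMP exceeded, and with the CMP libraries summed it exceeded all 7, as 1.21% of the intervals tested there did.

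Summed markers of marrow stromal cells were also highest in CMP, though not each of them, and at low counts. The sums were not tested. Of 6 listed (Mir199a-1, Mir199a-2, Mir199b, Mir214, Mir218-1 and Mir218-2) 5 had counts. They summed to 1.46 and 2.00 TMM-scaled CPM in the CMP libraries, and to between 0 and 1.33 in the others. The 1.33 was MEP library 1, close to the lower CMP library. Mir214 had 2 counts in each CMP library and 0 in the other 14, and Mir199a-2 had 8 and 26 in CMP and at most 4 elsewhere. The 2 counts of Mir214 are fewer than the 6 counts that a 0 allows. The other 3 did not peak in CMP. Mir199b had its highest mean in MEP (0.414 TMM-scaled CPM, against 0.278 in CMP), Mir199a-1 in T cells (0.409, against 0.322 in CMP), and Mir218-2 had 0 counts in CMP and 2 in each of 1 MEP and 1 Myeloid library. Mir218-1 had none. Mir142, which blood cells in general express, had its lowest mean in CMP, with 17.5 and 16.4 TMM-scaled CPM there and means of 26.9 to 161 elsewhere, although MEP library 2 was at 16.9. Scaled over all intervals, Mir142 did not differ past the threshold between CMP and CLP, GMP or MEP (adjusted p = 0.393, 0.110 and 0.259 by edgeR). It was lower in CMP than in T, Myeloid and Erythroid cells, and narrowly than in B cells (adjusted p = 0.0488 by edgeR). With miRNA intervals fitted alone it was lower in CMP than in all 7 populations, with log2 differences from -2.47 to -1.17. The share of miRNAs lower in CMP than in all 7 was not counted. The part of other cells in the Mir99a level was not tested. In sorted bulk RNA, more cells of a type and more RNA per cell cannot be told apart.

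**Figure D2:**
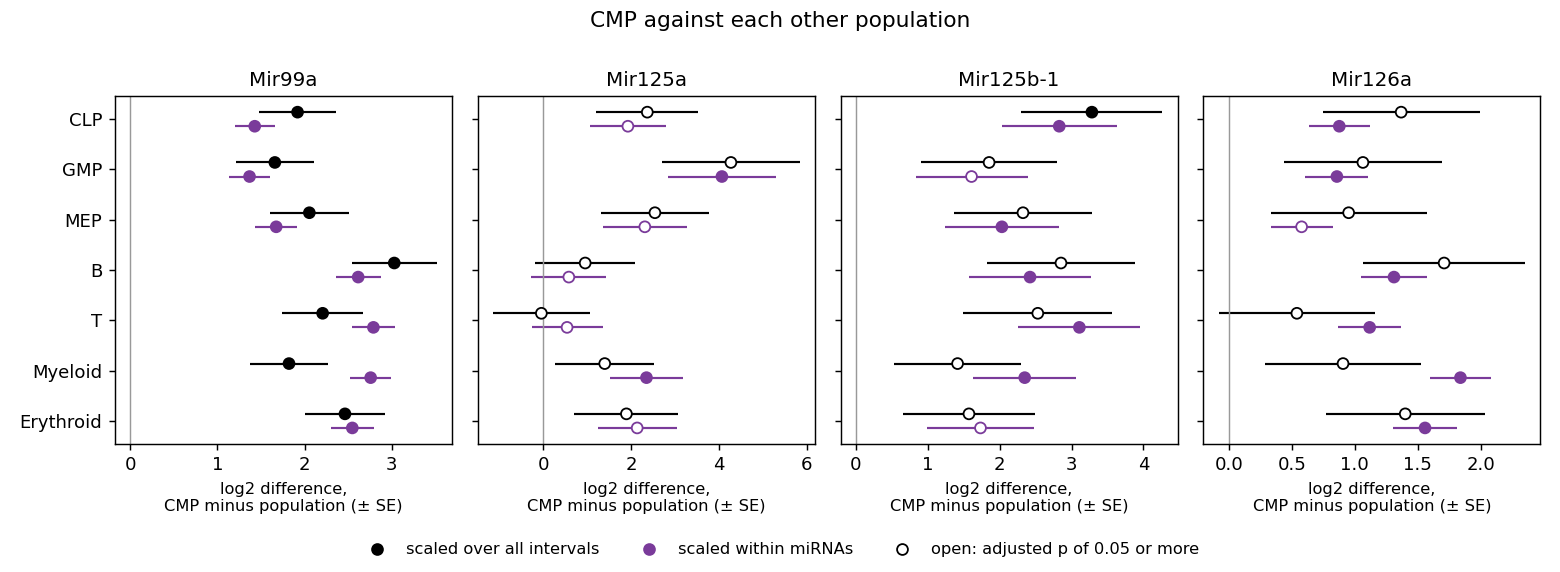
Log2 difference, CMP minus each of the 7 other populations, with its SE, for the 4 members, scaled over all intervals (black) or within miRNAs (purple). Filled points passed an adjusted p of 0.05. All 7 differences of Mir99a passed on both scales, and those of Mir126a and Mir125b-1 mostly passed on the miRNA scale alone.

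Mir126a, known for holding stem cells in quiescence, was also highest in CMP. The CMP libraries had 17.7 and 18.8 TMM-scaled CPM, those of CLP 6.09 and 7.99, those of GMP 4.09 and 13.3 and those of MEP 13.6 and 5.14. The mature values were 4.62 and 6.57 in B, 12.01 and 13.1 in T, 8.04 and 11.3 in Myeloid and 3.01 and 10.7 in Erythroid. The CMP libraries lay above all others, but the GMP, MEP and Erythroid pairs each spanned a wide range, and T cells came next after CMP. None of its 7 differences between CMP and another population passed in edgeR, while 2 had an unadjusted p under 0.05 and DESeq2 called 2. The log2 differences ran from 0.54 against T (SE 0.62, adjusted p = 0.577 by edgeR) to 1.71 against B (SE 0.64, adjusted p = 0.0724).

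Mir125b-1, of the family that expands progenitors when raised, was highest in CMP as well, at a far lower depth. Its level was 1.87 and 1.91 TMM-scaled CPM in the CMP libraries, 0.0883 and 0.261 in those of CLP, 0.272 and 0.761 in those of GMP and 0.580 and 0.125 in those of MEP. In mature cells it was 0.474 and 0 in B, 0.194 and 0.431 in T, 0.782 and 0.646 in Myeloid and 0.241 and 1.00 in Erythroid. In B library 2 the 0 allows up to 0.469. Both CMP libraries were above the other 14, as for Mir99a and Mir126a, which 10.9% of the 201 tested miRNAs were. The difference passed the test against CLP only, by 3.28 (SE 0.98, 9.73-fold, adjusted p = 0.0282), where CLP held 14 counts and CMP 62. That call was lost with either CMP library, either CLP library or either Myeloid library left out, and with the CMP libraries summed.

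Mir125a, of the same seed, had another order of populations on this scale. CMP had 1.04 and 1.65 TMM-scaled CPM, CLP 0.0883 and 0.391, GMP 0 and 0.127 and MEP 0.414 and 0. T cells had 1.55 and 1.29, B cells 0.356 and 1.09, Myeloid cells 0.670 and 0.398 and Erythroid cells 0 and 0.701. CMP and T cells thus overlapped at the top on this scale, and GMP held 2 counts in all. The zeros allow up to 0.409 in GMP library 1, 0.376 in MEP library 2 and 0.362 in Erythroid library 1. None of its 28 pairs of populations passed in edgeR, while 2 had an unadjusted p under 0.05 and DESeq2 called 2. CMP and T differed by -0.04 (SE 1.10, adjusted p = 0.987 by edgeR).

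Progenitors and mature cells were then compared, as the mean of CLP, CMP, GMP and MEP against the mean of B, T, Myeloid and Erythroid. Mir99a averaged 7.47 ± 6.0 TMM-scaled CPM in progenitors and 3.29 ± 1.10 in mature cells (SD, n = 4 populations each). It was higher in progenitors, with a log2 difference of 0.97 (SE 0.23, adjusted p = 0.00459 by edgeR). Over all intervals 26.7% were called higher and among miRNAs 4.98%. The median difference was 0.07 over all intervals and -0.67 over the 201 miRNAs, so most miRNAs had a negative difference on this scale. The Mir99a difference was 0.50 (adjusted p = 0.137) with CMP left out and 1.13 (adjusted p = 0.149) with each population summed to 1 value. Over its 26 alternatives the log2 difference ran from 0.50 to 1.56 and the adjusted p from 6.43e-11 to 0.149.

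The other members did not pass that test. Mir126a averaged 10.8 ± 5.03 in progenitors and 8.67 ± 3.09 in mature cells (log2 difference 0.29, SE 0.31, adjusted p = 0.463). Mir125b-1 averaged 0.734 ± 0.785 and 0.471 ± 0.232 in those groups (0.23, SE 0.53, adjusted p = 0.739). Mir125a averaged 0.464 ± 0.593 in progenitors and 0.758 ± 0.468 in mature cells (-1.24, SE 0.67, adjusted p = 0.150). Among the 8 populations, the test over all of them called Mir99a (adjusted p = 0.00210) and not Mir125b-1 (0.115), Mir125a (0.171) or Mir126a (0.282). That test called 61.1% of all intervals and 57.2% of miRNAs. Without CMP it did not call Mir99a (adjusted p = 0.302), and over 25 alternatives that p ran from 5.18e-17 to 0.302.

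On the scale of miRNA CPM, the GMP, MEP and Erythroid pairs of libraries lay closer together for Mir99a and Mir126a. This scale divides by the miRNA share of a library, so it depends on that share. It lowers a level most in Myeloid cells, where the share was 3.06% and 3.18%. For Mir99a the CMP libraries had 1416 and 1462 miRNA CPM, those of CLP 459 and 537, those of GMP 554 and 455 and those of MEP 417 and 421. In mature cells it held 269 and 220 in B, 148 and 184 in T, 168 and 170 in Myeloid and 234 and 211 in Erythroid. Every progenitor library was above every mature library. The population means differed by 1.66 on the log2 scale (3.16-fold, two-sided exact permutation p = 0.0286, the smallest that 4 against 4 can give). As a share of the counts of all intervals, Mir99a differed by 1.21 between the stages (exact permutation p = 0.0857).

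For Mir126a the CMP libraries had 1584 and 1611 miRNA CPM, those of CLP 736 and 883, those of GMP 616 and 902 and those of MEP 1022 and 958. It held 583 and 770 in B, 613 and 578 in T, 302 and 400 in Myeloid and 390 and 552 in Erythroid. All 4 progenitor means were above the 4 mature means, by 0.97 on the log2 scale (1.95-fold, two-sided exact permutation p = 0.0286), although B library 2 exceeded CLP library 1 and GMP library 1. Such separation held for 8.46% of the 201 tested miRNAs. As a share of the counts of all intervals, Mir126a differed by 0.53 between the stages (exact permutation p = 0.343). Mir99a, Mir126a and Mir125b-1 again had both CMP libraries above the other 14, as 16.9% of these miRNAs did. Mir125b-1 had 168 and 164 miRNA CPM in CMP and at most 59.8 elsewhere. Mir125a had 93.2 and 142 in CMP, 44.8 and 128 in B and 79.0 and 57.1 in T, so on this scale its CMP libraries were above both T libraries and overlapped B cells. Between the stages Mir125b-1 (log2 difference 0.86, exact permutation p = 0.314) and Mir125a (-0.83, exact permutation p = 0.60) did not separate.

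**Figure D3:**
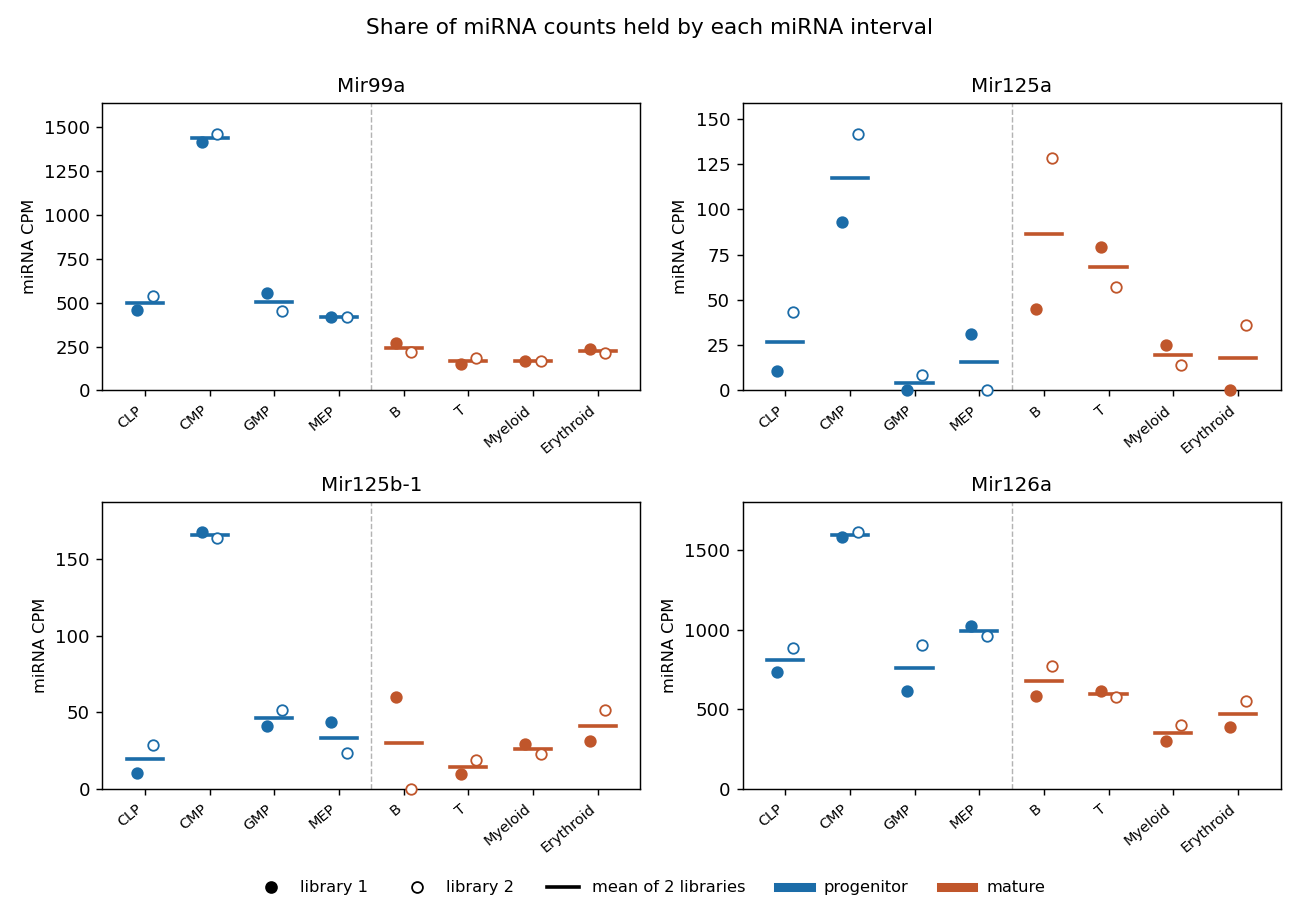
miRNA CPM of each member in every library, with progenitors in blue and mature populations in orange. For Mir99a the lowest progenitor library was at 417 and the highest mature library at 269, and CMP stood at 1416 and 1462.

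When edgeR was run on the miRNA intervals alone, 203 were tested, and 31.0% were called higher in progenitors. Mir99a was called (log2 difference 1.56, SE 0.13, adjusted p = 6.43e-11), and so was Mir126a (0.88, SE 0.13, adjusted p = 1.25e-06). Mir125b-1 (0.79, adjusted p = 0.127) and Mir125a (-0.67, adjusted p = 0.288) were not. These p-values rest on the spread between the 2 libraries of each population, not on the spread among populations. Fits with CMP left out, with each population summed or with the CMP libraries summed were not run on the miRNA intervals alone. The stage difference of Mir126a ran from 0.01 to 0.88 over its 27 alternatives, with adjusted p from 1.25e-06 to 0.981. Its call depended on the scale and on the populations included. Over all intervals, edgeR also called it with GMP, MEP and Erythroid left out (0.38, adjusted p = 0.0190). In the fit on miRNA intervals alone, CMP was higher than all 7 populations for Mir99a and than 6 for Mir126a. It was higher than 5 for Mir125b-1 and than 2 for Mir125a. Of such tests 23.0% were called there, and 5.91% of the miRNAs were above all 7. For Mir126a the exception was MEP (0.58, SE 0.25, adjusted p = 0.0719). For Mir125a the populations were GMP (4.07, SE 1.23, adjusted p = 0.0112) and Myeloid (2.35, SE 0.83, adjusted p = 0.0296), while CMP did not differ from T past the threshold (0.54, SE 0.81, adjusted p = 0.657). Of the 28 pairs of populations 19 differed in Mir99a, 14 in Mir126a, 5 in Mir125b-1 and 4 in Mir125a, against 35.1% of pairs over all miRNAs. The test among the 8 populations called all 4 members there, against 76.8% of all miRNAs.

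Each mature population was also set against the progenitor of its lineage. Scaled over all intervals, none of the 12 tests of the members passed in edgeR, at an unadjusted p under 0.05 or in DESeq2, while 43.3% of all intervals differed between CLP and the mean of B and T, 31.8% between GMP and Myeloid and 9.88% between MEP and Erythroid. On the miRNA scale, where those shares were 41.4%, 44.3% and 31.5%, Mir99a was higher in CLP than in mature lymphocytes by 1.27 (SE 0.21, adjusted p = 1.57e-05). It was higher in GMP than in Myeloid by 1.39 (SE 0.24, adjusted p = 5.04e-05) and in MEP than in Erythroid by 0.87 (SE 0.26, adjusted p = 0.0109). Mir126a was higher in GMP than in Myeloid (0.98, SE 0.25, adjusted p = 0.00217) and in MEP than in Erythroid (0.98, SE 0.26, adjusted p = 0.00510), but CLP did not differ from B and T past the threshold (0.34, SE 0.22, adjusted p = 0.222). Neither Mir125 member passed in a branch. None of the 12 differences between branches passed in edgeR on either scale, none had an unadjusted p under 0.05, and DESeq2 called 0. Over all intervals, the GMP branch differences of Mir99a and Mir126a changed sign with a single GMP library left out, and that of Mir126a also without a Myeloid library. Their MEP branch differences changed sign with a single MEP or Erythroid library left out. The CLP branch kept its sign, at 0.56 to 0.78 for Mir99a and -0.41 to -0.042 for Mir126a.

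Of the 7 cluster and family relatives, 4 passed the low-count filter, and of these 1, Mir99b, was higher in progenitors and none lower (median log2 difference 0.13, against -0.67 over the 201 miRNAs, of which 10 were higher and 80 lower). Fitted within miRNAs, 3 of the 4 were higher, Mir99b, Mirlet7c-1 and Mirlet7a-2, and none lower (median 0.73, against -0.05 over 203 miRNAs, of which 63 were higher and 59 lower). Mir99b, which lies in the cluster of Mir125a and has the seed of Mir99a, had 6.04 and 5.65 TMM-scaled CPM in CMP. It had 0.706 to 1.27 in the other progenitors, 1.55 and 2.16 in T cells and 0.241 to 0.938 in the other mature cells. CMP was higher than all 7 populations, by 1.64 (SE 0.42, adjusted p = 0.0127) against T to 3.58 (SE 0.47, adjusted p = 0.000160) against Erythroid. Mir99b thus stood highest in CMP like its family member on another chromosome, while the TMM-scaled CPM of Mir125a, 554 bases away, overlapped between CMP and T cells. The Mir125a difference between CMP and T had an SE of 1.10, and in miRNA CPM its CMP libraries were above both T libraries. Whether Mir99b and Mir125a differ in this was not tested.

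Mirlet7c-1, the neighbour of Mir99a, had 34.1 and 33.0 TMM-scaled CPM in CMP and 5.43 to 22.0 elsewhere. It was higher in CMP than in 3 populations, and its stage difference was 0.35 (SE 0.22, adjusted p = 0.200). Within miRNAs it was higher in CMP than in all 7 and higher in progenitors by 0.96 (SE 0.082), and over 26 alternatives the adjusted p ran from 1.93e-10 to 0.941. Its 4 progenitor means of miRNA CPM were above the 4 mature means (log2 difference 1.05, two-sided exact permutation p = 0.0286), the separation also seen for Mir99a and Mir126a. Mir100, the closest relative of Mir99a in sequence, had 1.04 and 0.609 in CMP and 0 to 0.894 elsewhere, and its stage difference did not pass (-0.28, SE 0.36, adjusted p = 0.536). Mirlet7a-2, a let-7 gene in the cluster of Mir125b-1, had 20.4 and 22.1 in CMP and 20.3 and 22.2 in Myeloid cells (stage -0.08, adjusted p = 0.784). In miRNA CPM it had 1826 and 1894 in CMP, against 762 and 784 in Myeloid cells, and in the fit within miRNAs CMP was higher than all 7 populations. Mir125b-2, Mirlet7e and Mir126b had at most 14, 10 and 6 counts in a library and were not tested. Of 9 other miRNAs known from stem and progenitor cells 5 were tested, 1 was higher and 1 lower in progenitors, against 10 and 80 of the 201 miRNAs. Within miRNAs 3 were higher and 1 lower, against 63 and 59 of 203.

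**Figure D4:**
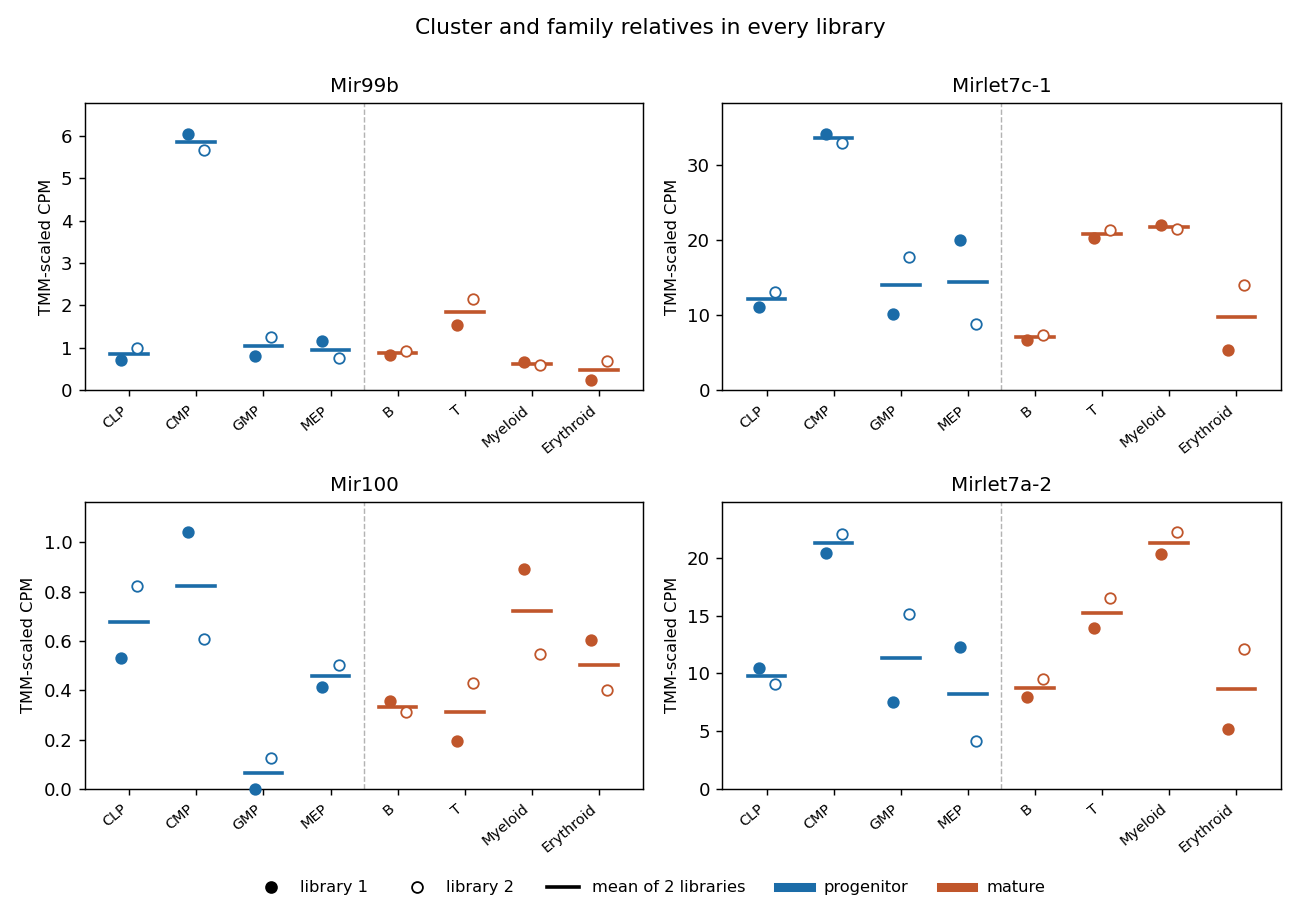
TMM-scaled CPM of 4 relatives of the members in every library, drawn as for the members. Mir99b stood at 6.04 and 5.65 in CMP and at most at 2.16 elsewhere, while on this scale Mirlet7a-2 was at 20.4 and 22.1 in CMP and at 20.3 and 22.2 in Myeloid cells.

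The ratio of 2 intervals within a library does not depend on scaling. Mir99a and Mirlet7c-1, from 1 cluster, had a ratio of 0.490 ± 0.0380 in CMP, 0.369 ± 0.0131 in GMP, 0.356 ± 0.0209 in CLP and 0.265 ± 0.0165 in MEP (SD, n = 2 libraries each). In mature cells the ratio was 0.313 ± 0.0286 in Erythroid, 0.286 ± 0.0428 in B, 0.214 ± 0.0148 in Myeloid and 0.169 ± 0.0366 in T. The libraries of a population agreed within 1.05 to 1.36 times, also in GMP, MEP and Erythroid, where the Mir99a level itself differed by 1.83, 2.46 and 2.27 times. CMP was at the top and T and Myeloid cells at the bottom, while MEP lay between B and Myeloid. This pair was chosen after its values were seen, so the ratios are a description.

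**Figure D5:**
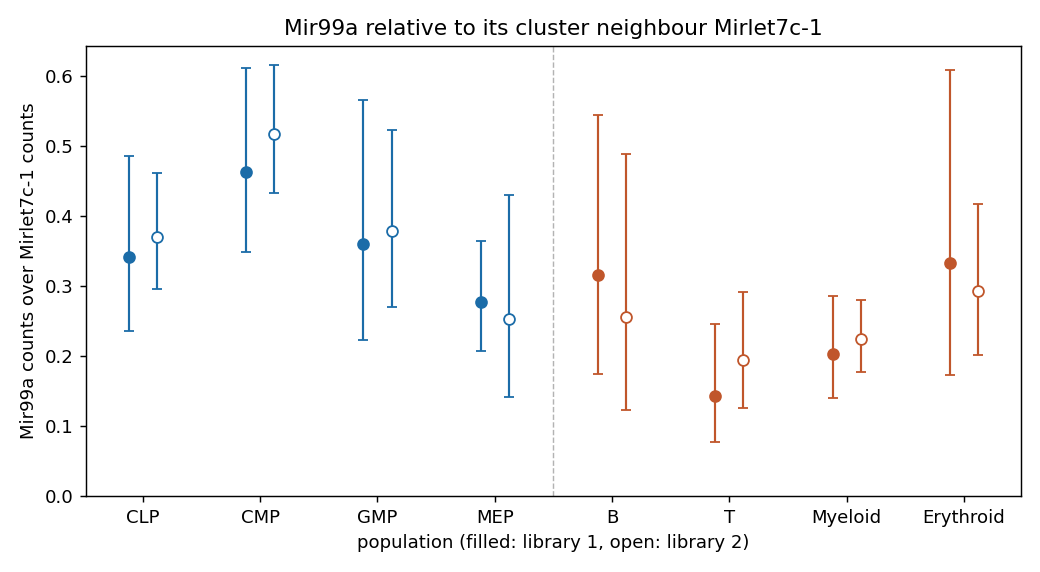
Counts of Mir99a over counts of Mirlet7c-1 in every library, with 95% exact binomial intervals on read pairs that cover counting error only. The 2 CMP libraries were at 0.463 and 0.517, and those of T cells at 0.143 and 0.195.

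Over the 8 population means of log2 TMM-scaled CPM, with 0.1 CPM added, the members differed in what they resembled. The points share libraries and scaling, so the correlations are descriptions. Mir99a was closest to Mir222 (Pearson r = 0.951), then to Mir224 (0.921), Gm27854 (0.896), Mir320 (0.887) and Mir1981 (0.872). Mir126a was closest to let-7 genes and others, namely Mirlet7c-1 (0.958), Mirlet7b (0.936), Mir92-1 (0.932), Mirlet7c-2 (0.908) and Mir181d (0.904).

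Mir125b-1 was closest to Mir6240 (0.896), Mir6236 (0.845), Mir92-1 (0.822), Mir1981 (0.820) and Mir224 (0.819). Mir125a was closest to Mir92-2 (0.972), Mir128-1 (0.941), the snoRNA interval Gm24148 (0.933), mmu-mir-3535, which overlaps it (0.930), and Mir28a (0.925). Among the members, Mir99a had r = 0.839 with Mir126a and 0.794 with Mir125b-1, but 0.213 with Mir125a. The 2 Mir125 members, which share a seed, had r = 0.313 with each other, at counts of at most 44 in a library.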

How the data were processed

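The deposited values are raw counts per small RNA interval, with no normalization by the authors. Per the submitters' processing notes, Trimmomatic 0.38, Bowtie2 2.3.4.1 and GRCm38 were used. The counting program, its annotation and its use of strand are not given in the sources used here. An interval missing from a library was taken as 0. Of 1885 intervals 1860 matched GENCODE M21 by coordinates.

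R 4.3.3 with edgeR 4.0.16 (glmQLFit and glmQLFTest) was used to test the counts. The filter filterByExpr, with the populations as groups and a minimum count of 10, kept 749 intervals and all 4 members. Libraries were scaled by TMM, with 1 mean per population, and p-values were adjusted by Benjamini-Hochberg over all intervals, or over all intervals and 28 pairs, at 0.05. SE is the log2 difference over the square root of F. The test was checked on simulated counts, drawn with a common dispersion and no effect shared by the intervals of a library. That check does not cover the differences in miRNA share between libraries. Shares of miRNA counts, as means of the 8 populations, were tested by exact permutation, two-sided, over 70 assignments (scipy 1.17.1). DESeq2 1.42.0, other scalings and filters, a replicate block and left-out libraries were alternatives.

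The intervals named are the 4 members, their relatives and, for each member, the 5 tested intervals of highest correlation. The members and lists were chosen with earlier results of these data known. Sequences are from RefSeq, and all 4 members matched.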

Additional observations from a re-analysis of the deposited data

How the results depend on the processing

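Of 828 values of the members recomputed under alternatives, 718 kept their direction and their side of the threshold, or for counts stayed within 1.5 times. Differences are log2, and the difference among populations is given as the highest less the lowest population. The cause of a change was not tested. Except for the fit on miRNA intervals alone, the shares of all intervals called among populations or in pairs of populations are not given under the alternatives. Calls of the members there thus have no general rate beside them. Mir125a and Mir125b-1 had at most 44 counts in a library, and the part of depth in their results was not tested.

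The stage difference of Mir99a was positive under all alternatives, but was not called with CMP left out (0.50, and 1.37 among populations, also not called) or with each population summed (1.13). Its log2 share difference was 1.21 and that of Mir126a 0.53, neither passing the exact test, when shares were of all counts, and that of Mir100 was then -0.0601. With CMP left out Mir125b-1 differed by -0.40 between the stages.

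Fitted on miRNA intervals alone, Mir99a was called in all branches (1.27, 1.39 and 0.87) and in 19 pairs. Mir126a was called between stages (0.88), in GMP against Myeloid and MEP against Erythroid (0.98 each), among populations (1.84), in 14 pairs and above 6 populations in CMP. Its CLP branch was at 0.34. Mir125b-1 was called among populations (3.11), in 5 pairs and above 5 populations in CMP, and its GMP branch was at 0.74. Mir125a was called among populations (4.07), in 4 pairs and above 2 populations. The stage differences of Mir100 and Mirlet7a-2 were 0.27 and 0.50.

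Without the low-count filter, Mir125a was called between stages (-1.23), among populations (4.32), in 7 pairs and above 3 populations, Mir125b-1 among populations (3.16), in 4 pairs and above 4 populations, and Mir126a among populations (1.65), in 7 pairs and above 6 populations. Between stages, 179 of the 1885 intervals were called lower in progenitors in that fit. DESeq2 called Mir125a among populations (4.69), in 2 pairs and above 1 population, Mir125b-1 among populations (3.28), in 3 pairs and above 3, and Mir126a in 2 pairs and above 2. With library totals in place of TMM, Mir99a was called in CLP against B and T (1.15), Mir125b-1 in 3 pairs and above 3, and Mir126a in 1 pair and above 1, with its CLP branch at 0.21 and the Mirlet7a-2 stage difference at 0.15. RLE size factors called Mir125a in 2 pairs and above 1 population.

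With GMP, MEP and Erythroid left out, Mir126a was called between stages (0.38) and among populations (1.61), Mir125a (2.304) and Mir125b-1 (3.17) among populations, and the stage differences of Mir100 and Mirlet7a-2 were 0.80 and 0.0337. Treating the CMP libraries as 1, chosen after seeing the data as was leaving CMP out, gave Mir125b-1 0 pairs and 0 populations.

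With single libraries left out, Mir99a differed by 0.56 to 0.78 in the CLP branch (called without MEP library 2), by -0.25 to 0.49 in the GMP branch and by -0.40 to 1.13 in the MEP branch, with 6 to 11 pairs (11 without MEP library 2). Mir125a differed by -2.54 (called, without MEP library 1) to 0.24 (without Erythroid library 2) between stages, by -5.87 to 5.25 in the MEP branch and by 3.44 to 7.82 among populations (7.82 called, without Erythroid library 2), with 0 to 3 pairs and CMP above 0 to 1 populations. Mir125b-1 differed by -0.15 to 1.54 between stages, by -1.58 to 2.10, -1.27 to 0.0682 and -2.28 to 0.61 in the 3 branches and by 2.74 to 8.24 among populations (8.24 called, without B library 1), with 0 to 2 pairs and CMP above 0 to 2. Mir126a differed by -1.16 to 0.42 in the GMP branch and -0.43 to 1.64 in the MEP branch, with 0 to 2 pairs and CMP above 0 to 2, and by 0.892 to 1.03 in its share, which missed the exact test without GMP library 2 or B library 1. The stage difference of Mirlet7a-2 was -0.33 to 0.11, and that of the Mir100 share -0.00629 to 0.56.

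The labels do not state that replicate numbers pair the libraries. A minimum mean of 10 CPM left only Mir126a among the members, so it gave no value for the others. Shares with a population at 0 were not computed. Deviations of same-numbered libraries correlated at -0.908 to 0.816 over 28 pairs of populations, with 17 above 0.1, which does not show whether the numbers mark a shared batch or day. With the replicate number as a block the Mir99a stage difference was 0.98, still called by edgeR, 7 pairs were called for it, and no call of a member changed.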
